A study of Mus musculus with 6 samples.

Results

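Malat1 and 9 other long noncoding RNAs were followed, replicate by replicate, in a mouse colorectal tumor line and in a mutant derived from it. The members were found by symbol among 24346 genes. They were chosen by name with their values in this comparison already known, so everything said of how these 10 RNAs differed between the lines is a description and carries no p-value. The parental cells were CT26 colorectal tumor cells carrying overexpressed mouse MR1 (CT26.mMR1), the molecule that presents small metabolites to mucosal-associated invariant T (MAIT) cells. M8 came from the same MR1-overexpressing cells after treatment with the mutagen N-ethyl-N-nitrosourea (ENU). It was retained because it raised the activity of the MAIT reporter line 6C2 and carried more MR1 on its surface. Each line gave 3 mRNA libraries, and M8 is a single mutant, so a property of the mutagenized line and a property of any particular mutation cannot be told apart. Levels were measured as FPKM, which the study describes as fragments scaled to exon length and to the mapped total of a library. This puts genes of different length on a common scale.

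Long noncoding RNAs are transcribed like mRNAs but are not translated into a functional protein. Malat1 gathers in nuclear speckles, the compartments that store splicing factors, and Neat1 is the scaffold of the neighbouring paraspeckles. Gas5 and the Snhg genes are host genes: small nucleolar RNAs (snoRNAs), which guide the chemical modification of ribosomal RNA, are cut from their introns, while their spliced exons leave the nucleus and are degraded by nonsense-mediated decay. H19, Kcnq1ot1 and Meg3 are imprinted RNAs, expressed from 1 parental chromosome. Epb4.1l4aos (Epb41l4aos in current nomenclature) is read in the opposite direction to the gene Epb41l4a.

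The sequences below show features by which these RNAs differ from an ordinary mRNA. The mRNA libraries were prepared with a kit that captures poly(A) tails, and the 3′ ends of Malat1 and of long Neat1 are not made by polyadenylation. RNase P cuts both transcripts after an A-rich stretch that is encoded in the genome. The capitals mark the run of A followed by GCAAAA. The Malat1 stretch is at chr19:5795912-5796039 on the minus strand and the Neat1 stretch at chr19:5824708-5824798 on the minus strand (GRCm38, the assembly also called mm10, from GENCODE transcripts):

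Malat1 3′ end: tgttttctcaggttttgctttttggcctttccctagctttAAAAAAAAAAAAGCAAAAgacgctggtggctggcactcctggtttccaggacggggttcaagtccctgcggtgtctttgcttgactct

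Neat1 3′ end: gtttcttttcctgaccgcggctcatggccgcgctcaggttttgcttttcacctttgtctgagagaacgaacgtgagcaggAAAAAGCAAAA

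The Malat1 tract held 12 A before GCAAAA and occupied bases 6674 to 6691 of an annotated transcript of 6983 bases, followed by the tRNA-like sequence that is released as a separate small RNA. The Neat1 tract held 5 A and formed the last 11 bases of the transcript of 20771 bases. At least 5 A followed by GCAAAA occurred in the last 350 bases of 133 of 127626 annotated mouse transcripts (0.104%).

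Several snoRNA host genes belong to the terminal oligopyrimidine class, whose RNAs begin with a C and a run of pyrimidines. The start sites of the 4 host genes among the members are shown, as RefSeq gives them on GRCm38.p6, from 30 bases before the start to 50 bases from it. Capitals mark a C followed by at least 4 further C or T that begins within 5 bases of the start. Gas5 has a pair of annotated starts, at chr1:161034571-161034650 and chr1:161035136-161035215 on the plus strand. Snhg1 is at chr19:8723457-8723536 (plus), Snhg12 at chr4:132308648-132308727 (plus) and Snhg3 at chr4:132353637-132353716 (minus):

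Gas5 start 1: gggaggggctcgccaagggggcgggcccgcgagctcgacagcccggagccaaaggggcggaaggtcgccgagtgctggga

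Gas5 start 2: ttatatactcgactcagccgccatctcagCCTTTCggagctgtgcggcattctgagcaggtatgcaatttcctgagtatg

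Snhg1 start: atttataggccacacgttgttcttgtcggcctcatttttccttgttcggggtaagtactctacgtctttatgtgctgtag

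Snhg12 start: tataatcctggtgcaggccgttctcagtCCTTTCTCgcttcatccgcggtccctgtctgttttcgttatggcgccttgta

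Snhg3 start: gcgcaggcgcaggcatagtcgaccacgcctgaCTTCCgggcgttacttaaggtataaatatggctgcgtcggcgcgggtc

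The run was present at the second Gas5 start and at the starts of Snhg12 and Snhg3. It was not in this window at the first Gas5 start or at the annotated Snhg1 start. The same run was present at 6027 of 32851 start sites in the reference table (18.3%).

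The introns of Gas5 held 10 snoRNA annotations, those of Snhg1 held 8, of Snhg12 5 and of Snhg3 2, while the Epb4.1l4aos locus held 1. Some of these annotations overlap each other. Snord47, at chr1:161038082-161038158 on the plus strand within Gas5, shows what the host genes carry. Capitals mark its C box (TGATGA) and D box (CTGA), the motifs that bind the core snoRNA proteins:

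Snord47: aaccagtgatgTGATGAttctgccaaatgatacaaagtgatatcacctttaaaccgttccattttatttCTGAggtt

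The libraries differed little in their totals. FPKM values summed to 593635 to 626241 in the parental replicates and to 622529 to 630264 in the M8 replicates. The number of reads is not part of an FPKM value, but a depth relative to parental replicate 1 could be estimated from the spacing of the values of weakly expressed genes. This estimate was 0.948 and 1.07 in the other parental replicates and 0.772 to 0.875 in M8. Differences were estimated with limma, a linear model fitted to all genes at once, on log2(FPKM + 1). A gene entered the fit with a mean of at least 1 FPKM and was counted as higher or lower in M8 at a Benjamini-Hochberg adjusted p below 0.1. On this scale a difference understates the change of weakly expressed genes. The labelled tissue is colon, but of 8 epithelial markers Epcam, Cdh1, Krt19 and Cdx2 were listed at 0 in all 6 samples. The 8 summed to 39.7 to 56.4 FPKM in parental cells and 47.5 to 49.3 FPKM in M8, nearly all of it Krt18 and Krt20, of which Krt20 fell (log2 fold change -0.50, limma adjusted p = 0.00438). The 6 mesenchymal markers, led by Vim, summed to 1893 to 2280 FPKM in parental cells and 2117 to 2207 FPKM in M8. Of these Pdgfrb and Cdh2 rose, with log2 fold changes of 0.25 and 0.13 (limma adjusted p = 0.00787 and 0.055, the call of Cdh2 being lost in 8 of 17 alternatives, among them those without parental replicate 2 or any M8 replicate), and the part of such marker shifts in the members' values was not tested. The 6 immune markers together reached at most 0.508 FPKM in any sample, with Cd3e and Adgre1 at 0 throughout.

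Of the 10 members, 7 passed the filter on low values. Among these 7, 4 were lower in M8 (Malat1, Neat1, Gas5 and Snhg12), 1 was higher (Snhg3) and 2 were neither (Snhg1 and Epb4.1l4aos). Over all 10597 genes tested, 16.5% were lower and 21.2% were higher. The 3 M8 values lay wholly below the 3 parental values for the 4 lower members and wholly above them for Snhg3, a separation that 45.2% of all genes tested also had. In bulk RNA, less RNA per cell and fewer cells that express a gene cannot be told apart.

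**Figure D1:**
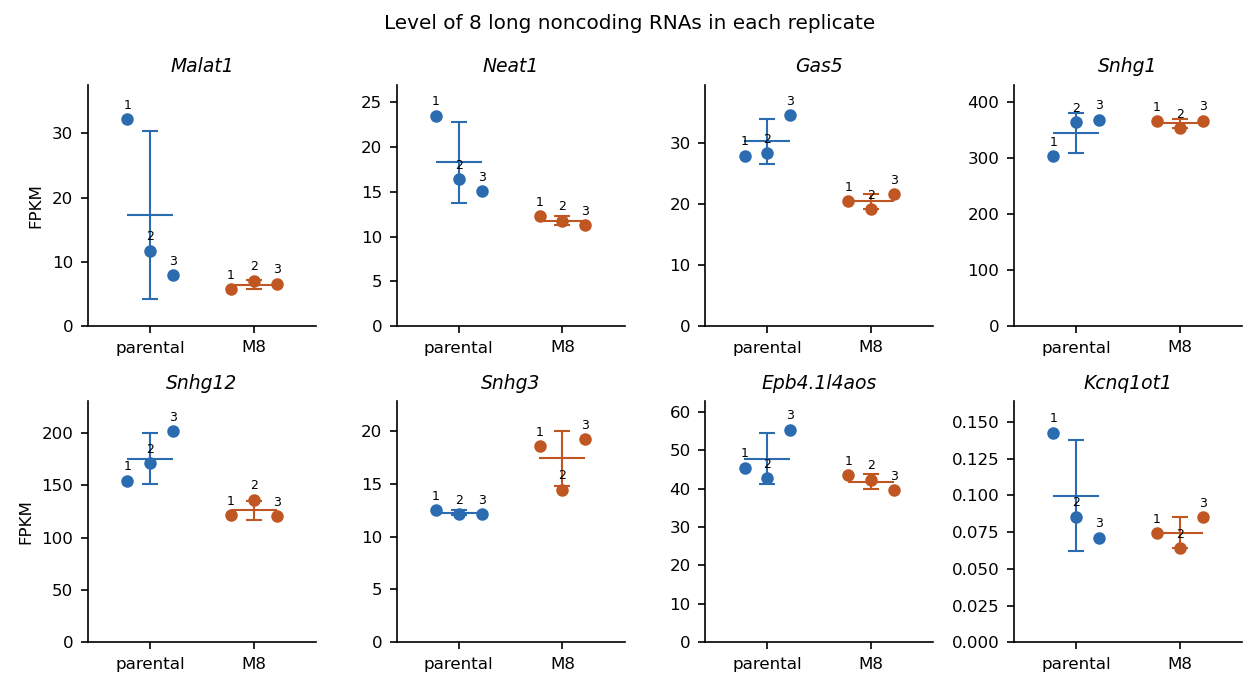
FPKM of 8 member RNAs in each replicate (points, numbered 1 to 3), with the mean and SD of the parental (blue) and M8 (orange) groups. Each vertical axis starts at 0 and has its own scale. Malat1 in parental replicate 1, at 32.2 FPKM, stood far above the other 5 samples, while Gas5 and Snhg12 separated the lines without such a replicate.

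Malat1 (chr19:5795690-5802672, minus strand) was the member whose parental replicates differed most. Its level was 32.2, 11.7 and 7.88 FPKM in parental replicates 1, 2 and 3 and 5.73, 7.01 and 6.60 FPKM in the M8 replicates. All M8 values lay below all parental values, but parental replicate 3 was much closer to M8 than to parental replicate 1. The means were 17.3 ± 13.1 FPKM (n = 3, SD) in parental cells and 6.45 ± 0.655 FPKM (n = 3, SD) in M8, a ratio of 0.374. The log2 fold change was -1.06 (standard error, SE, 0.37), which ranked 11th from the bottom among all genes tested.

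The spread of Malat1 between parental replicates was itself unusual. Its coefficient of variation was 75.7% in parental cells, where the median gene had 5.62%, and 10.2% in M8, where the median was 4.42%. Parental replicate 1 held 3.29 times the mean of the other parental replicates, the second highest such ratio of all genes tested. Without parental replicate 1, the M8 mean was 0.659 times the parental mean, and the log2 fold change shrank to -0.52, still past the threshold. Without parental replicate 3 it was -1.47. The difference no longer passed the threshold when M8 replicate 1, 2 or 3 was left out, with values of -0.99, -1.12 and -1.08. The direction was the same in each of these fits, and the size of the Malat1 difference therefore depended on which parental library was counted.

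Neat1 (chr19:5824708-5845480, minus strand), which lies close to Malat1, had the same order of its parental replicates, with smaller differences. Its level was 23.5, 16.4 and 15.1 FPKM in the parental replicates and 12.3, 11.8 and 11.3 FPKM in M8. Parental replicate 1 was again the highest sample, at 1.49 times the mean of the other parental replicates, a ratio that ranked 64th of all genes tested. The groups did not overlap. The mean fell from 18.3 ± 4.53 FPKM (n = 3, SD) to 11.8 ± 0.493 FPKM (n = 3, SD), a log2 fold change of -0.57 (SE 0.13). It was -0.39 without parental replicate 1, and Neat1 passed the threshold with any 1 replicate left out. The gene holds a short polyadenylated and a long RNA, and a single FPKM value per gene does not say which of them was lower.

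Protein-coding genes near Malat1 and Neat1 were compared beside them. Frmd8, 5494 bases from Neat1, ranged from 9.08 to 10.6 FPKM over all 6 samples and did not pass the threshold. Ltbp3, which encodes a latent TGF-beta binding protein, fell from 38.6 ± 1.88 FPKM (n = 3, SD) to 33.1 ± 0.562 FPKM (n = 3, SD), with a log2 fold change of -0.21 (SE 0.047, limma adjusted p = 0.0094). Its highest value was in parental replicate 2, not replicate 1.

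**Figure D2:**
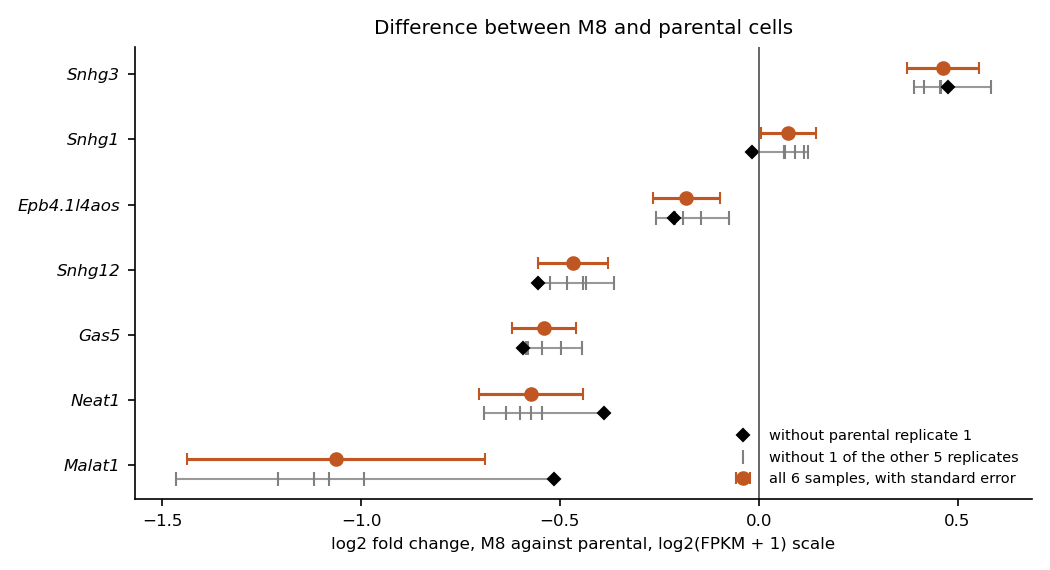
Log2 fold change of M8 against parental cells for the 7 members tested. Circles give the estimate from all 6 samples with its standard error, and ticks and diamonds give the estimate when 1 replicate was left out. Malat1 moved from -1.06 to -0.52 without parental replicate 1 (diamond) and kept its sign. Of the 7 members, only Snhg1 changed sign in any such fit (-0.016 to 0.12).

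Genes for the protein partners of these nuclear RNAs were more often higher than lower in M8. The list held 24 genes for paraspeckle proteins, splicing factors bound by Malat1 and proteins that process or bind its 3′ end. Like the other gene lists here, it was drawn up with earlier results of these data known. Its shares and adjusted p-values are therefore a description and not an independent test. All 24 were tested, 14 were higher in M8 (58.3%, against 21.2% of all genes tested) and 1, Hnrnph1, was lower, a call lost in 8 of 17 alternatives, among them those without parental replicate 1 or 2 or M8 replicate 1 or 2. The median log2 fold change of the list was 0.21, against 0.01 over all genes tested. Sfpq, a paraspeckle core protein that binds Neat1, had 91.8, 101.7 and 91.8 FPKM in parental cells and 144.7, 131.3 and 126.8 FPKM in M8, with no overlap (log2 fold change 0.49, SE 0.059, limma adjusted p = 0.000762). The SR splicing factors Srsf2 and Srsf3 rose with log2 fold changes of 0.43 and 0.40 (limma adjusted p = 0.000261 for each), Rbm14, which is needed for paraspeckle assembly, with 0.34 (limma adjusted p = 0.00126), and Taf15, an RNA-binding protein of the FET family, with 0.29 (limma adjusted p = 0.0036). Nono, the partner of Sfpq, did not pass the threshold, with a log2 fold change of 0.08 (limma adjusted p = 0.17). Nono, Mettl16 and Elac2 were picked out after their values were seen, Mettl16 and Elac2 for their known roles at the Malat1 3′ end. Mettl16, which binds the triple helix formed there, rose from 15.4 ± 0.449 FPKM (n = 3, SD) to 18.9 ± 0.869 FPKM (n = 3, SD) (log2 fold change 0.28, limma adjusted p = 0.00441). Elac2, which trims the released small RNA, had 13.5 ± 0.659 FPKM (n = 3, SD) in parental cells and 15.2 ± 1.21 FPKM (n = 3, SD) in M8 (log2 fold change 0.16, limma adjusted p = 0.0906), a call lost in 9 of 17 alternatives, among them those without parental replicate 2 or 3 or M8 replicate 1 or 2.

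Gas5 (chr1:161034601-161038539, plus strand), named for its accumulation in growth-arrested cells, separated the lines clearly. Its level was 28.0, 28.4 and 34.7 FPKM in the parental replicates and 20.6, 19.2 and 21.7 FPKM in M8. All M8 values lay below all parental values, and here parental replicate 1 was the lowest of its group. The mean fell from 30.3 ± 3.76 FPKM (n = 3, SD) to 20.5 ± 1.24 FPKM (n = 3, SD), with a log2 fold change of -0.54 (SE 0.081). Gas5 overlaps Zbtb37 at its start, on the other strand. Zbtb37 ranged from 1.26 to 1.54 FPKM over the 6 samples and did not pass the threshold.

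Snhg12 (chr4:132308678-132311024, plus strand) also separated the lines, at a higher level. It had 154.1, 170.7 and 201.4 FPKM in the parental replicates and 121.5, 136.2 and 120.2 FPKM in M8. Every M8 value was below every parental value. The mean fell from 175.4 ± 24.0 FPKM (n = 3, SD) to 126.0 ± 8.88 FPKM (n = 3, SD), and the log2 fold change was -0.47 (SE 0.088). Trnau1ap, a selenocysteine tRNA-associated protein encoded 739 bases beyond the end of Snhg12 on the other strand, went up from 20.5 ± 0.421 FPKM (n = 3, SD) to 24.1 ± 0.946 FPKM (n = 3, SD), with a log2 fold change of 0.22 (limma adjusted p = 0.00876).

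Snhg3 (chr4:132351933-132353686, minus strand) lies in the same region of chromosome 4 and was the only member tested that was higher in M8. Its level was 12.5, 12.1 and 12.1 FPKM in the parental replicates and 18.5, 14.4 and 19.2 FPKM in M8. The parental values were nearly equal, with a coefficient of variation of 1.77%, while M8 replicate 2 lay between the parental values and the other M8 values. The mean rose from 12.2 ± 0.217 FPKM (n = 3, SD) to 17.4 ± 2.57 FPKM (n = 3, SD), a log2 fold change of 0.46 (SE 0.091). In GENCODE 1 of 8 transcripts of Rcc1, the nucleotide exchange factor of the GTPase Ran, reaches into Snhg3 on the same strand (chr4:132337823-132353605), although the RefSeq genes do not overlap, so the assignment of reads between the genes is uncertain. Rcc1 had 27.1, 24.0 and 23.0 FPKM in parental cells and 32.8, 35.3 and 32.3 FPKM in M8, with a log2 fold change of 0.43 (SE 0.064, limma adjusted p = 0.00195). Phactr4, 2236 bases from Snhg3 on the other side, rose with a log2 fold change of 0.23 (limma adjusted p = 0.0143).

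Snhg1 (chr19:8723487-8726326, plus strand) had the highest FPKM of the members and did not separate the lines. It had 302.5, 362.8 and 367.5 FPKM in the parental replicates and 364.8, 352.5 and 366.2 FPKM in M8. Parental replicate 1 was the lowest sample, and the other 5 lay close together. The log2 fold change was 0.07 (SE 0.069), and it turned to -0.02 without parental replicate 1 and to -0.03 with quantile normalization, so no direction can be given. Slc3a2, the heavy chain of an amino acid transporter, starts 118 bases from Snhg1 on the other strand. It rose from 162.7, 160.9 and 168.1 FPKM to 218.9, 216.9 and 215.0 FPKM (log2 fold change 0.40, SE 0.036, limma adjusted p = 0.000206).

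Epb4.1l4aos, on the plus strand of chromosome 18, also overlapped between the lines. Its level was 45.4, 42.7 and 55.3 FPKM in parental cells and 43.4, 42.3 and 39.6 FPKM in M8. Parental replicate 3 was the highest sample, and without it the log2 fold change went from -0.18 (SE 0.084) to -0.07. Without parental replicate 2 it was -0.26 and passed the threshold, as it did with TPM, quantile or upper-quartile scaling. Epb41l4a, which ends 338 bases from the end of Epb4.1l4aos on the other strand and encodes a cytoskeletal FERM-domain protein, rose from 34.3 ± 1.55 FPKM (n = 3, SD) to 39.5 ± 1.11 FPKM (n = 3, SD), with a log2 fold change of 0.20 (limma adjusted p = 0.014).

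Of 22 protein-coding genes tested that overlap a member or lie within 50 kb of one, 8 were higher in M8 (36.4%) and 2, Ltbp3 and Mrpl23, were lower (9.09%), against 21.2% and 16.5% of all genes tested. The call of Mrpl23 was lost in 5 of 17 alternatives, among them those without parental replicate 1 or M8 replicate 2 or 3. The snoRNAs themselves were poorly represented in these mRNA libraries. Of those in Gas5, Snhg1, Snhg12 and Snhg3 whose names matched a row, Snord47, Snora44, Snora61 and Snord99 were listed at 0 in all 6 samples and Snora16a had 5.35 FPKM in parental replicate 2 alone. Snord22, in an intron of Snhg1, had 13.3, 7.02 and 44.2 FPKM in parental cells and 30.7, 0 and 24.0 FPKM in M8. These values overlapped and varied too much between replicates to give a direction.

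The 3 imprinted RNAs did not reach the filter. H19 (chr7:142575530-142578146, minus strand) and Meg3 (chr12:109540996-109571729, plus strand) were listed at 0 in all 6 samples. Kcnq1ot1 (chr7:143213111-143296547, minus strand), which silences neighbouring genes in cis, had 0.143, 0.0855 and 0.0712 FPKM in the parental replicates and 0.0742, 0.0643 and 0.0852 FPKM in M8. The groups overlapped, and parental replicate 1 was the highest sample, at 1.82 times the mean of the other parental replicates. Of 27 other genes of imprinted clusters, 6 were tested, 2 were lower (33.3%) and none was higher in M8, against 16.5% and 21.2% of all genes tested. The number lower was 1 with a mean of at least 5 FPKM and 4 with no filter on low values. Cd81, a tetraspanin near Kcnq1ot1, fell from 166 ± 10.2 FPKM (n = 3, SD) to 141 ± 2.96 FPKM (n = 3, SD) (log2 fold change -0.23, limma adjusted p = 0.00773). Slc22a18, an organic cation transporter of the same cluster, fell from 3.28 ± 0.327 FPKM (n = 3, SD) to 2.32 ± 0.26 FPKM (n = 3, SD) (log2 fold change -0.37, limma adjusted p = 0.019).

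Ordered by mean level over the 6 samples, the members were Snhg1 at 352.7 FPKM, Snhg12 at 150.7, Epb4.1l4aos at 44.8, Gas5 at 25.4, Neat1 at 15.1, Snhg3 at 14.8, Malat1 at 11.9 and Kcnq1ot1 at 0.0872. By FPKM, Malat1 stood at percentile 41.6 of the genes tested, and Snhg1 at percentile 97.8. The libraries captured poly(A) tails, and how fully Malat1 and long Neat1 were captured was not tested. Their place in this order may therefore differ from their place in the cells. Within parental cells all Neat1 values lay above all Snhg3 values, and Malat1 ranged across both. In M8 the order of Neat1 and Snhg3 was the opposite, with Snhg3, Neat1 and Malat1 following each other without overlap, and the lowest Gas5 value of 19.19 FPKM met the highest Snhg3 value of 19.19 FPKM.

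Parental replicate 1 did not stand at the same end for all members. In parental replicate 1, Malat1, Neat1 and Kcnq1ot1 had their highest values of all 6 samples. Snhg1 had its lowest value there, and Gas5 and Snhg12 their lowest value within the parental group. The ratio of parental replicate 1 to the mean of the other parental replicates had a median of 0.996 over all genes tested, with a 5th to 95th percentile range of 0.833 to 1.2. It was 0.829 for Snhg1, 0.829 for Snhg12 and 0.888 for Gas5. Among 16 other named long noncoding RNAs tested, 6 had their highest value in that replicate (Tug1, Firre, Fendrr, Ftx, Bvht and Mir22hg), and 1, Sra1, its lowest. Of all 234 annotated long noncoding RNAs tested outside the members, which include 13 of these 16, 56 had their highest value there (23.9%), as did 17.3% of all genes tested. Fendrr, which acts on chromatin, had 18.4, 14.1 and 13.3 FPKM in parental cells and 12.3, 12.6 and 14.2 FPKM in M8. Among 18 other snoRNA host genes, the highest value was there for 1, Snhg20, and the lowest for 1, Snhg8, at 8.17 FPKM against 15.9 to 20.3 FPKM elsewhere. Of 18 other terminal oligopyrimidine genes, 8 had their lowest value there (44.4%) and none its highest, while 19.9% of all genes tested had their lowest value there. Parental replicate 1 also had the lowest FPKM sum of the 6 libraries, and the part of library preparation in these values was not tested.

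**Figure D3:**
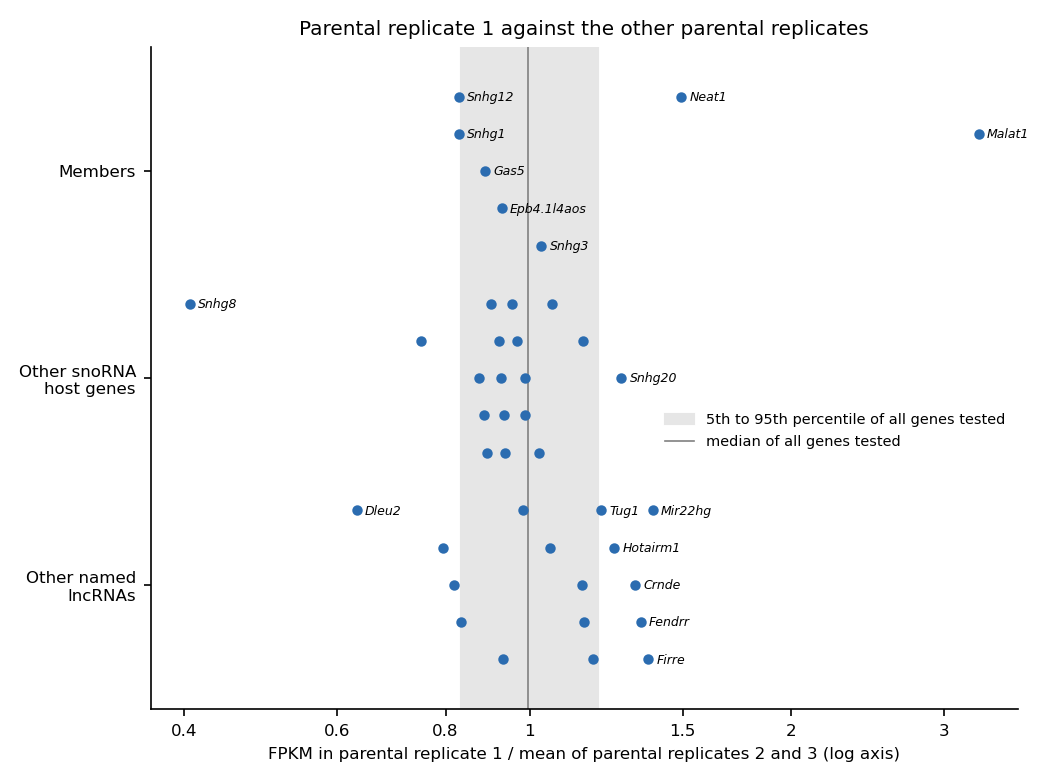
Ratio of FPKM in parental replicate 1 to the mean of parental replicates 2 and 3 (log axis) for the members tested, 18 other snoRNA host genes and 16 other named long noncoding RNAs, each point 1 gene. The grey band spans the 5th to 95th percentile of all genes tested, 0.833 to 1.2. Malat1 at 3.29 and Neat1 at 1.49 lie to its right, and Snhg1 and Snhg12 at its left edge.

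The genes whose levels followed Malat1 most closely over the 6 samples, among 8540 with a mean of at least 5 FPKM, were Hipk2, Tnrc6a and Vps13d, with Pearson's r of 0.997, 0.995 and 0.992 on log2(FPKM + 1). The points share the same 6 libraries. Like Malat1, each of these genes had its highest value in parental replicate 1, and the order without that replicate was not tested. Hipk2, a nuclear kinase, had 9.04, 7.44 and 6.77 FPKM in parental cells and 6.23, 6.61 and 6.42 FPKM in M8, a much narrower range than that of Malat1. For Gas5 the closest genes were Plk2, Dlg3 and Cflar, with r of 0.994, 0.994 and 0.993. Plk2, a kinase induced by p53 and by cell stress, had 113.5, 115.6 and 129.1 FPKM in parental cells and 100.8, 98.0 and 104.0 FPKM in M8. It was chosen for following Gas5, so these values are a description.

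Other snoRNA host genes moved in both directions. Of 21 on the list, 18 were tested, 7 were lower in M8 (38.9%), 3 were higher (16.7%) and 8 were neither, against 16.5% lower and 21.2% higher of all genes tested, with a median log2 fold change of -0.12. Among the noncoding hosts, Zfas1 fell from 436.3, 432.0 and 509.6 FPKM to 361.9, 354.2 and 345.6 FPKM (log2 fold change -0.37, SE 0.062, limma adjusted p = 0.0029). Snhg7, Snhg16, Snhg18 and Snhg6 fell with log2 fold changes of -0.35, -0.27, -0.26 and -0.22 (limma adjusted p = 0.0204, 0.0558, 0.0243 and 0.02). The call of Snhg16 was lost in 5 of 17 alternatives, among them those without parental replicate 2 or M8 replicate 1 or 2. Snhg17 rose with 0.19 (limma adjusted p = 0.0598), a call lost in 8 of 17, among them those without parental replicate 2 or 3 or M8 replicate 1 or 3. The protein-coding hosts divided as well. Eif4a2 and Rack1 fell, with log2 fold changes of -0.43 and -0.18 (limma adjusted p = 0.00221 and 0.0117), whereas Nop56, a core protein of box C/D snoRNA particles, and Eif4a1, the paralog of Eif4a2, rose with 0.41 and 0.22 (limma adjusted p = 0.000242 and 0.00342).

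The machinery linked to the fate of host RNAs was compared in the same fit. Of 18 nonsense-mediated decay factors, 5 were higher in M8 (27.8%, against 21.2% of all genes tested) and 1, Pnrc2, was lower, a call lost in 4 of 17 alternatives, among them those without parental replicate 1 or M8 replicate 1 or 2. The higher share was thus near that of all genes. With upper-quartile scaling 4 of these factors were higher and 3 were lower. Magohb, a subunit of the exon junction complex, rose from 35.0 ± 1.49 FPKM (n = 3, SD) to 44.9 ± 1.43 FPKM (n = 3, SD) (log2 fold change 0.35, limma adjusted p = 0.00114), and Smg5, which acts late in the pathway, from 37.3 ± 0.575 FPKM (n = 3, SD) to 46.1 ± 1.35 FPKM (n = 3, SD) (log2 fold change 0.30, limma adjusted p = 0.00138). Of 18 other terminal oligopyrimidine genes, which encode translation factors and related proteins, 2 were higher and 1 was lower, against 21.2% and 16.5% of all genes tested. This balance did not hold, since none was higher in 11 of 17 alternatives, among them those without parental replicate 1 or 3 or M8 replicate 1 or 3. With TPM 4 were lower, with quantile or upper-quartile scaling 6, and without parental replicate 1 3. The lower one in the fit to FPKM was Tpt1, with a log2 fold change of -0.23 (limma adjusted p = 0.00682), and the median of the list was 0.00.

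Among named long noncoding RNAs outside the members, 16 of 38 on the list were tested, 4 were lower in M8 (25.0%) and 2 were higher (12.5%), against 16.5% and 21.2% of all genes tested. With a mean of at least 5 FPKM required, 1 was lower. Firre, a nuclear RNA from the X chromosome that organizes chromatin contacts, fell from 5.72, 4.24 and 4.12 FPKM to 2.91, 2.6 and 2.38 FPKM (log2 fold change -0.64, SE 0.11, limma adjusted p = 0.00368). Trp53cor1, a p53-induced RNA also called lincRNA-p21, fell with -0.39 (limma adjusted p = 0.0387), Pvt1, a neighbour of Myc, with -0.30 (limma adjusted p = 0.0249) and Oip5os1 with -0.22 (limma adjusted p = 0.0261). The call of Trp53cor1 was lost in 3 of 16 alternatives, those without parental replicate 2 or M8 replicate 1 or 2. Rmrp, the RNA of the RNase MRP particle, rose from 6.92, 6.77 and 10.6 FPKM to 13.0, 10.9 and 17.0 FPKM (log2 fold change 0.69, SE 0.17, limma adjusted p = 0.0173), and Morrbid with 0.34 (limma adjusted p = 0.0103). Norad, a cytoplasmic RNA, ranged from 42.1 to 48.4 FPKM over the 6 samples and did not pass the threshold.

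**Figure D4:**
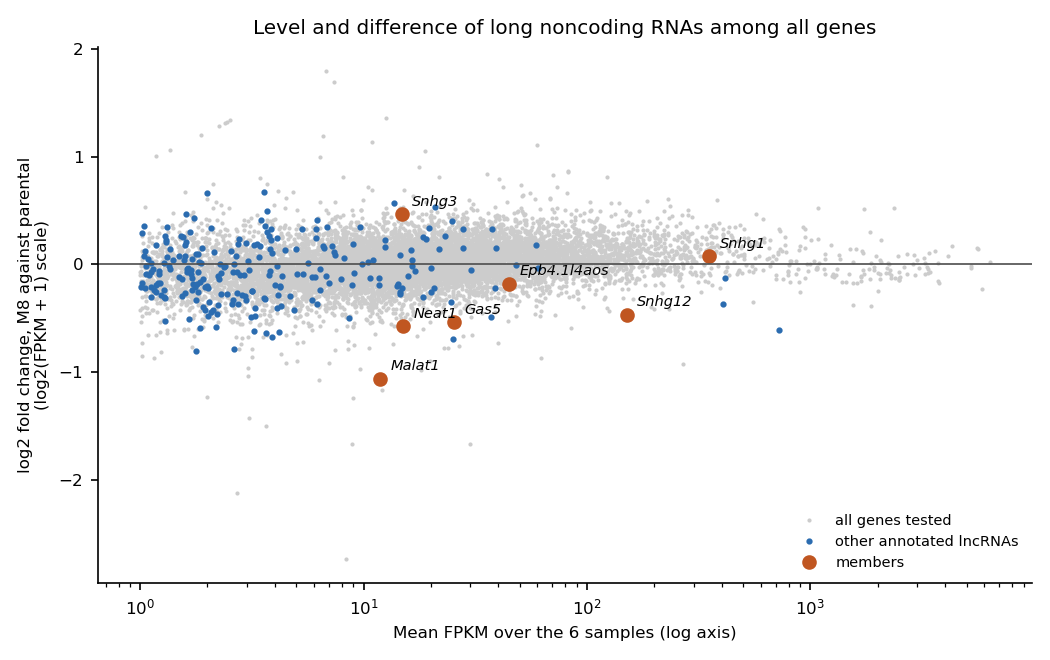
Mean FPKM over the 6 samples (log axis) against log2 fold change of M8 against parental cells, for all 10597 genes tested (grey), 234 other annotated long noncoding RNAs (blue) and the 7 members tested (orange). Malat1, at a mean of 11.9 FPKM and -1.06, lies near the lower edge of the cloud, while Snhg1 lies close to 0 at 352.7 FPKM.

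Over the whole annotation, 234 long noncoding RNAs outside the members were tested, among them 13 of the named RNAs and 13 of the snoRNA hosts above. Of these, 54 were lower in M8 (23.1%) and 26 were higher (11.1%), with a median log2 fold change of -0.07, whereas over all genes the higher share exceeded the lower one. The balance over all genes depended on scaling, since 1658 genes were higher and 2209 lower with values rescaled to TPM, and 1470 and 2769 with upper-quartile scaling. For the long noncoding RNAs 55 were lower and 21 higher with TPM, and 59 and 20 with upper-quartile scaling. With quantile normalization the counts were close to each other, at 38 lower and 32 higher, and with a mean of at least 5 FPKM they were 18 and 17. Without parental replicate 1 there were 48 lower and 26 higher.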

How the data were processed

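RNA-seq of 3 parental CT26.mMR1 and 3 M8 samples was used, described by the study as biological replicates. The authors prepared stranded mRNA libraries, mapped reads to mm10 and calculated the deposited FPKM values. The submitters' processing notes name TopHat2 2.1.1, Bowtie2 2.2.8, SAMtools 0.1.18 and Cuffdiff 2.2.1, and the gene annotation is not given in the sources used here. FPKM values are not counts, so no count model or counting interval was applied, and the study's own test on read counts was not repeated. Values were compared as log2(FPKM + 1) with limma 3.58.1 (R 4.3.3; lmFit, eBayes with trend, no covariates) where the mean over the 6 samples reached 1 FPKM, with Benjamini-Hochberg adjustment over all 10597 genes. The fit was tested on simulated data. Members and gene lists were chosen with earlier results of these data known. All 10 members were named. Of other genes, tested snoRNA hosts and named long noncoding RNAs could be named, up to 5 called genes with the largest difference in each further list, protein-coding neighbours within 50 kb, and the 3 genes most correlated with Malat1 and with Gas5. Markers named were fixed as a list, and Nono, Mettl16 and Elac2 were added after their values were seen. Symbols were matched to RefSeq (GRCm38.p6) as written, then by synonym. Sequences came from RefSeq promoters and from GENCODE M21 transcripts on GRCm38. Alternatives were other pseudocounts, filters, scalings, variance models and thresholds, a replicate block and leaving out each replicate.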

Additional observations from a re-analysis of the deposited data

How the results depend on the processing

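Neat1, Gas5, Snhg12 and Snhg3 kept their direction and their side of the threshold under all 17 alternatives. Malat1 kept its direction but not its call, which was lost without a filter on low values, with eBayes without a trend and at an adjusted p below 0.05 (log2 fold change -1.06 in each). Leaving out 1 replicate gave Malat1 values from -1.47 to -0.52, with the call lost without any M8 replicate. Snhg1 was -0.033 with quantile normalization and -0.016 to 0.12 with a replicate left out. Epb4.1l4aos became lower past the threshold with TPM (-0.22), quantile normalization (-0.25) and upper-quartile scaling (-0.24), and ranged from -0.26 to -0.075 with a replicate left out. Upper-quartile scaling gave 1470 higher and 2769 lower genes in all. Leaving out 1 replicate gave 1591 to 2100 higher and 1142 to 1681 lower genes, the fewest without M8 replicate 1. With a mean FPKM of at least 5, which leaves fewer genes to test, 17 annotated long noncoding RNAs were higher and 18 lower, and leaving out 1 replicate gave 18 to 29 higher and 35 to 48 lower. Of the terminal oligopyrimidine genes, none was higher in 11 of 17 alternatives, and up to 6 were lower. The lower call of Hnrnph1 was lost in 8 of 17 alternatives and that of Pnrc2 in 4. With quantile normalization 32 annotated long noncoding RNAs were higher and 38 lower. Replicate numbers did not pair the samples: same-numbered samples deviated together with correlations of 0.10, -0.11 and -0.03. With the replicate block 2171 genes were higher and 1688 lower; the fitted differences cannot change in this balanced design (Malat1 -1.06). FPKM values hold no read counts, so the counting error of low values such as those of Kcnq1ot1, and of values listed at 0, is unknown.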
